A study of Mus musculus with 18 samples.

Results

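The collagen chain genes are the genes that encode the polypeptide chains of the collagens, and here they were taken as every row of the deposited mouse liver count table whose symbol is Col, a type number, the letter a and a chain number. The rule found 44 genes among the 55487 rows of the table, and no measured value entered it. By the structure of the collagen they build, 11 encode fibrillar chains, 6 the chains of the basement membrane network (type IV), 6 the chains of beaded filaments (type VI), 3 the short chains of sheet-like networks (types VIII and X), 9 fibril-associated chains (FACIT collagens), 2 multiplexins (types XV and XVIII), 4 transmembrane chains and 3 the anchoring fibril chain and others (types VII, XXVI and XXVIII). The genes lie on 15 chromosomes, and their exons add up to between 3095 and 15228 bases with a median of 7542.5, against a median of 3495 for all protein-coding genes of the table.

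Collagens are the main proteins of the extracellular matrix, and each molecule is a helix of several chains that are hydroxylated and folded in the endoplasmic reticulum, secreted, trimmed at their ends and crosslinked. Types I and III form the fibrils of scar tissue, type IV forms the sheet of basement membranes, and type VI forms fine filaments around cells. In liver, stellate cells and portal fibroblasts are the known makers of fibrillar collagen in fibrosis, while hepatocytes themselves secrete type XVIII collagen, whose end fragment is endostatin.

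The study asked whether more lysosomal acid lipase in hepatocytes changes diet-induced fatty liver disease. Livers of C57BL/6J mice came from 3 groups of 6: CON-GFP mice were fed a purified control diet and carried a GFP vector, FPC-GFP mice carried the same vector and were fed a high-fat diet with added fructose, palmitate and cholesterol (FPC), and FPC-LIPA mice were fed that diet and carried the human LIPA gene. Per the study's methods, mice on the FPC diet also drank water with fructose and glucose, and tissues were taken after a short fast. The diet below means the feed and that water together. All 18 mice had been injected with an adeno-associated virus 1 week before a diet of 16 weeks, and per the study's methods the virus drove its gene from a hepatocyte promoter and the sequenced mice were male. The labels give no age, and per the study's methods the mice were bought at 7 weeks of age and injected after 1 week of settling in. No sequenced liver analysed here came from a mouse with LIPA on the control diet.

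Whole-liver RNA was sequenced and reads were counted per gene. Libraries held 17741598 to 33588153 counts in CON-GFP, 17813507 to 31134367 in FPC-GFP and 16632146 to 37739301 in FPC-LIPA. The libraries FPC-LIPA 36, 37 and 39 (numbers are those of the mice) stood apart: in them, 6.47% to 8.14% of counts fell on cytosolic ribosomal protein genes, against 1.44% to 2.94% in the other 15. The numbers that end the library labels run from 55 to 68, except in 4 libraries (CON-GFP 1, CON-GFP 2, FPC-GFP 20, FPC-LIPA 37), and the labels do not say what they count. The mouse Lipa row does not check the vector, which carries the human gene: it held a median of 243 CPM (counts per 1000000 counts) in CON-GFP, 349 in FPC-GFP and 283 in FPC-LIPA. Hepatocyte markers (Alb, Ttr, Apoa1, Serpina1a, Tat and Cps1) summed to 45400 CPM or more in every library, and the 6 skeletal muscle and cartilage markers stayed at 0.256 CPM or less in sum.

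Col18a1 held more collagen reads than all other collagen genes together in every CON-GFP and FPC-GFP liver, and in FPC-LIPA only in livers 33 and 34. Together the 44 genes took 0.10% ± 0.023 (SD, n = 6) of counts in CON-GFP, 0.106% ± 0.0079 in FPC-GFP and 0.0774% ± 0.027 in FPC-LIPA. Col18a1, the type XVIII chain gene (ENSMUSG00000001435, GRCm38 chromosome 10, 77052178 to 77166548), held 66.4% ± 5.01 of those collagen reads in CON-GFP, 60.3% ± 1.98 in FPC-GFP and 44.1% ± 11.6 in FPC-LIPA. Without Col18a1 the share of counts was 0.0334% ± 0.0076 in CON-GFP, 0.042% ± 0.0031 in FPC-GFP and 0.0418% ± 0.012 in FPC-LIPA, so the order of the groups depended on that gene. It also depended on the scaling: as a share of the TMM-scaled library size (a scaling that evens out libraries by their typical gene), the 44 genes took 0.108% ± 0.024 in CON-GFP, 0.0987% ± 0.0087 in FPC-GFP and 0.0754% ± 0.018 in FPC-LIPA.

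Set per length of exon, which allows genes to be compared, Col18a1 led in every group, with a mean of 103 CPM per kb in CON-GFP, 84.9 in FPC-GFP and 48.4 in FPC-LIPA. The next 4 in CON-GFP were Col5a3 (a minor fibrillar chain of type V) at 11.7 CPM per kb, Col27a1 (a fibrillar chain known from cartilage) at 9.47, Col14a1 (a FACIT chain that coats fibrils) at 6.11 and Col4a1 at 3.16. Col3a1, the single chain of type III collagen, ranked 6 of 44 in CON-GFP at 2.15 CPM per kb, 5 in FPC-GFP at 4.78 and 2 in FPC-LIPA at 14.4. The type I chains were lower, with Col1a1 at 0.584 CPM per kb and Col1a2 at 0.677 in CON-GFP. The exon length counts the bases of every annotated exon once, 12426 for Col1a2, so values per kb depend on the annotation.

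**Figure D1:**
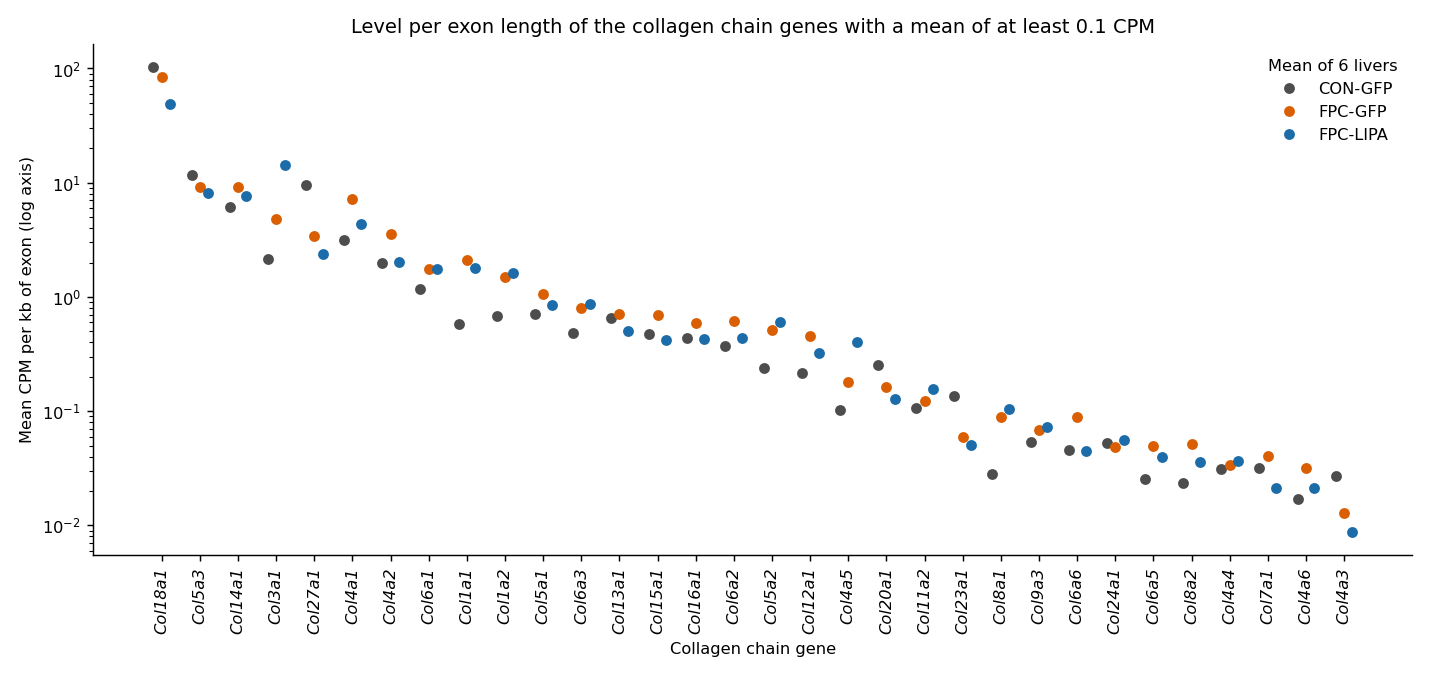
Mean CPM per kb of exon (log axis) of the 32 collagen chain genes with a mean of at least 0.1 CPM over all 18 livers, ordered by their overall mean, with one point for each group of 6 livers. Col18a1 lies above all others in each group, and Col3a1 moves from 2.15 CPM per kb in CON-GFP to 14.4 in FPC-LIPA while Col27a1 moves from 9.47 to 2.35.

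Some collagen genes were at or near 0. Col2a1 and Col10a1, the cartilage chains, and Col26a1 had no read in any of the 18 libraries, which allows up to 0.00596 CPM each over all libraries (3 reads, counting error only). In all, 8 genes never passed 3 reads in a library, among them Col11a1, Col9a1, Col9a2, Col6a4 and Col19a1, whereas 21 passed 3 reads in every library. A mean of at least 1 CPM was reached by 19 of the 44, a mean of 0.1 to 1 CPM by 13, and 12 stayed below 0.1 CPM.

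The comparison of FPC-GFP with CON-GFP asks what the diet did in livers with the control vector. With the diet, RNA of 4 of 9 tested fibrillar chains, 2 of 3 basement membrane chains and 3 of 5 beaded filament chains was higher at an adjusted p under 0.05, with Col1a1 changing the most, and RNA of Col27a1 and Col23a1 was lower. Of 26 collagen chain genes that passed the filter on low counts, 7 were higher and 2 lower at a change of at least 2-fold and an adjusted p under 0.05 (edgeR quasi-likelihood test, adjusted over all 14307 genes tested), or 26.9% and 7.69%. Among all genes tested the shares were 4.76% higher and 2.44% lower. At an adjusted p under 0.05 and any fold, 12 were higher and 2 lower, where the shares of all genes were 12.9% and 10.9%. The median log2 fold change of the 26 was 0.66 and that of all genes tested 0.01. The other 18 collagen genes were too low to be tested, and a gene can pass that filter through its higher group alone, as Col8a1 and Col23a1 did. The places of these genes in the counts above follow in part from the filter. Fewer cells of a type and less RNA per cell cannot be told apart in whole liver.

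Among the fibrillar chains, 4 of 9 tested rose at least 2-fold and 1 fell. Col1a1 (ENSMUSG00000001506, chromosome 11, 94936224 to 94953042), the chain that type I collagen holds in larger number, had 1.43, 4.11 and 5.28 CPM as lowest, median and highest values in CON-GFP against 10.6, 13.8 and 17.9 CPM in FPC-GFP. Every FPC-GFP liver lay above every CON-GFP liver, with a difference of 1.84 on the log2 scale (SE 0.23, adjusted p = 2e-04). Its partner chain Col1a2 (ENSMUSG00000029661, chromosome 6, 4504814 to 4541544) went from 6.29, 8.23 and 10.7 CPM to 12.4, 19.6 and 24.3 CPM, again without overlap, with a smaller log2 fold change of 1.15 (SE 0.16, adjusted p = 0.000418).

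Col3a1 (ENSMUSG00000026043, chromosome 1, 45311538 to 45349706) held 9.95, 21.95 and 28.6 CPM in CON-GFP against 37.7, 44.3 and 61.4 CPM in FPC-GFP. The groups did not overlap, and its log2 fold change was 1.15 (SE 0.20, adjusted p = 0.00148). Col5a2, a type V chain that regulates fibril width, lies tail-to-tail with Col3a1, 24614 bases away. It went from 1.17, 2.22 and 3.25 CPM to 3.35, 5.13 and 6.54 CPM without overlap (log2 fold change 1.10, SE 0.23, adjusted p = 0.00405). Its partner Col5a1 missed the threshold (log2 fold change 0.57, SE 0.21, adjusted p = 0.0576), as did the third type V chain, Col5a3 (−0.34, SE 0.20, adjusted p = 0.228).

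Col27a1 (ENSMUSG00000045672, chromosome 4, 63214004 to 63334991) moved the other way. It had 64.3, 109 and 189 CPM in CON-GFP against 23.4, 38.3 and 82.7 CPM in FPC-GFP, where only FPC-GFP 20 reached into the control range. The log2 fold change was −1.45 (SE 0.30, adjusted p = 0.00405). The fibrillar chains Col11a2 and Col24a1, both under 1 CPM, did not pass the test (adjusted p = 0.683 and 0.860).

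Promoter windows from RefSeq (build GRCm38.p6, 250 bases before and 50 after the start) were found for 35 of the 44 genes, in 38 windows, and Col1a1 and Col5a2 had none. The stretches before the start of 4 genes that changed with the diet are shown in lower case, leaving out bases that any annotated exon covers, with 3 sequence motifs in capitals wherever they occur on either strand: TATAAA (the TATA box), CCAAT and GGGCGG (the GC box). Col1a2 is chr6:4505370-4505492 on the plus strand, Col3a1 chr1:45311288-45311537 on the plus strand, Col8a1 chr16:57754738-57754987 on the minus strand and Col27a1 chr4:63215162-63215411 on the plus strand. The start meant is that of RefSeq. For Col1a2 and Col27a1 it differs from the start of the gene coordinates given above, and the stretches lie inside those coordinates. The Col1a2 stretch has 123 bases, and the others have 250.
Col1a2: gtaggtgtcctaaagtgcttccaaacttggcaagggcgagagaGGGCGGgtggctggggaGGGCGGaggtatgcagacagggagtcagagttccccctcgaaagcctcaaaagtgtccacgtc
Col3a1: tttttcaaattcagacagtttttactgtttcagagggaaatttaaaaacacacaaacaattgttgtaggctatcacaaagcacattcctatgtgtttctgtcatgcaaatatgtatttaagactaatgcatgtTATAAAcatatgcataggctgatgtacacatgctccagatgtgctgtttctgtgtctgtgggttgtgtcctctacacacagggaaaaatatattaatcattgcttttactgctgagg
Col8a1: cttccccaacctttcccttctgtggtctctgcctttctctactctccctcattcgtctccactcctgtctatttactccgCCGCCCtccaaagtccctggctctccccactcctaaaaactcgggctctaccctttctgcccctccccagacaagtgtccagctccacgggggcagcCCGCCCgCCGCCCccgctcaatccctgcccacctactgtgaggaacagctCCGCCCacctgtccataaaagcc
Col27a1: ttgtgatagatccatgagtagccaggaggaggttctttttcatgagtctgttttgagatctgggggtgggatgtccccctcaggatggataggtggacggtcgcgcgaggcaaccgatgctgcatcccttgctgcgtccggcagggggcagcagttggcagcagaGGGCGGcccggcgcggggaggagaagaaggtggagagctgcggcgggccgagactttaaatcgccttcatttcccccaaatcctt

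The Col3a1 stretch stands out by its base composition, with 35.2% G and C against 59.3% in Col1a2, 60.8% in Col8a1 and 59.6% in Col27a1. It held a TATAAA and no GGGCGG, whereas the stretches of Col1a2, Col8a1 and Col27a1 held 2, 4 and 1 copies of GGGCGG. The Col1a2 stretch is shorter than the others, and the 2 copies of CCAAT in its window lie outside it. Over whole windows, GGGCGG was found in 23 of 38 collagen windows (60.5%) and in 35.7% of all 32851 windows. TATAAA was found in 5 (13.2%) against 13.6% of all windows, and CCAAT in 13 (34.2%) against 37.4%. The median G and C content was 59.85% for the collagen windows and 52.7% for all. These matches are of letters alone.

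Of the 3 tested chains of the basement membrane, 2 rose with the diet, and Col4a5 was at 0.78 (SE 0.37, adjusted p = 0.130). Col4a1 (ENSMUSG00000031502, chromosome 8, 11198423 to 11312826, minus strand) and Col4a2 (ENSMUSG00000031503, chromosome 8, 11312805 to 11449287, plus strand) encode the common type IV molecule and are transcribed away from each other from starts 21 bases apart. Col4a1 held 14.5, 23.2 and 33.7 CPM in CON-GFP against 29.0, 45.1 and 106 CPM in FPC-GFP, where the ranges overlapped and FPC-GFP 11 was far above the rest. Its log2 fold change was 1.19 (SE 0.27, adjusted p = 0.00666), and 0.87 (SE 0.20, adjusted p = 0.00777), under 2-fold, without FPC-GFP 11. Col4a2 went from 7.20, 12.1 and 20.5 CPM to 17.9, 23.1 and 29.1 CPM (log2 fold change 0.83, SE 0.23, adjusted p = 0.0193). In both genes FPC-GFP 11 was the highest of its group. That liver was also the highest of its group for the contractile genes Tagln, at 38.9 CPM, and Acta2, at 11.0 CPM, and for the bile duct genes Krt19, at 5.63 CPM, and Epcam, at 5.04 CPM, whose part in the collagen values was not tested.

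Of the 5 tested beaded filament chains, 3 rose with the diet, each by less than 2-fold. Col6a3, the long chain of type VI collagen, had 2.92, 6.08 and 7.58 CPM in CON-GFP against 8.11, 9.54 and 11.8 CPM in FPC-GFP. No value was shared between the groups, and the log2 fold change was 0.74 (SE 0.19, adjusted p = 0.0110). Col6a2 also did not overlap (0.72, SE 0.17, adjusted p = 0.00832), and Col6a1 did overlap (0.57, SE 0.18, adjusted p = 0.0346). The result for Col6a1 was the less firm, as it missed the threshold in 10 of 21 alternative fits. The low chains Col6a5 and Col6a6, at means under 1 CPM in every group, did not pass, at 0.96 (SE 0.62, adjusted p = 0.268) and 0.99 (SE 0.37, adjusted p = 0.0635) on the log2 scale.

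Col8a1 (ENSMUSG00000068196, chromosome 16, 57624258 to 57754737), a short chain known from vessel walls, was low but higher in every FPC-GFP liver. It had 0.126, 0.199 and 0.324 CPM in CON-GFP, from 3 to 11 reads a library, and 0.524, 0.664 and 0.851 CPM in FPC-GFP. All FPC-GFP livers were above all CON-GFP livers (log2 fold change 1.65, SE 0.30, adjusted p = 0.00179). No CON-GFP library was high enough to count towards the filter on low counts, so the gene was tested through FPC-GFP alone. The call and the separation of the groups rest in part on that filter. The transmembrane chain Col23a1 was the 1 gene of the 26 that was lower in every FPC-GFP liver, with 0.515, 0.765 and 1.15 CPM in CON-GFP against 0.187, 0.341 and 0.495 CPM in FPC-GFP (log2 fold change −1.15, SE 0.32, adjusted p = 0.0181). This gene too was tested only because its higher group, here CON-GFP, passed the filter.

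Of the fibril-associated chains, Col12a1 went from 2.29, 3.105 and 5.36 CPM to 3.98, 5.37 and 14.9 CPM, with overlap. Its log2 fold change was 1.07 (SE 0.31, adjusted p = 0.0210), and 0.68 (SE 0.21, adjusted p = 0.0364), under 2-fold, without FPC-GFP 11. Col14a1 had 33.5, 42.5 and 51.7 CPM in CON-GFP against 48.8, 68.2 and 75.3 CPM in FPC-GFP, where only the lowest FPC-GFP liver lay within the control range (log2 fold change 0.60, SE 0.13, adjusted p = 0.00591). Col16a1 and Col20a1 did not pass the test, at 0.43 (SE 0.22, adjusted p = 0.154) and −0.63 (SE 0.30, adjusted p = 0.138).

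The multiplexins and the remaining transmembrane chain did not pass the test with the diet. Col18a1 had 475, 768 and 922 CPM in CON-GFP against 539, 577 and 719 CPM in FPC-GFP (log2 fold change −0.27, SE 0.16, adjusted p = 0.237). The FPC-GFP livers all lay inside the control range. Col15a1, the multiplexin of capillary basement membranes, stood at 0.56 (SE 0.28, adjusted p = 0.155) and Col13a1 at 0.13 (SE 0.22, adjusted p = 0.707). Counted over all 26 genes, the ranges of the groups did not overlap for 7 that were higher (Col1a1, Col1a2, Col3a1, Col5a2, Col6a2, Col6a3 and Col8a1) and 1 that was lower (Col23a1), or 26.9% and 3.85%, against 5.61% and 4.82% of all genes tested. Of these, Col8a1 and Col23a1 were tested only because their higher group passed the filter.

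**Figure D2:**
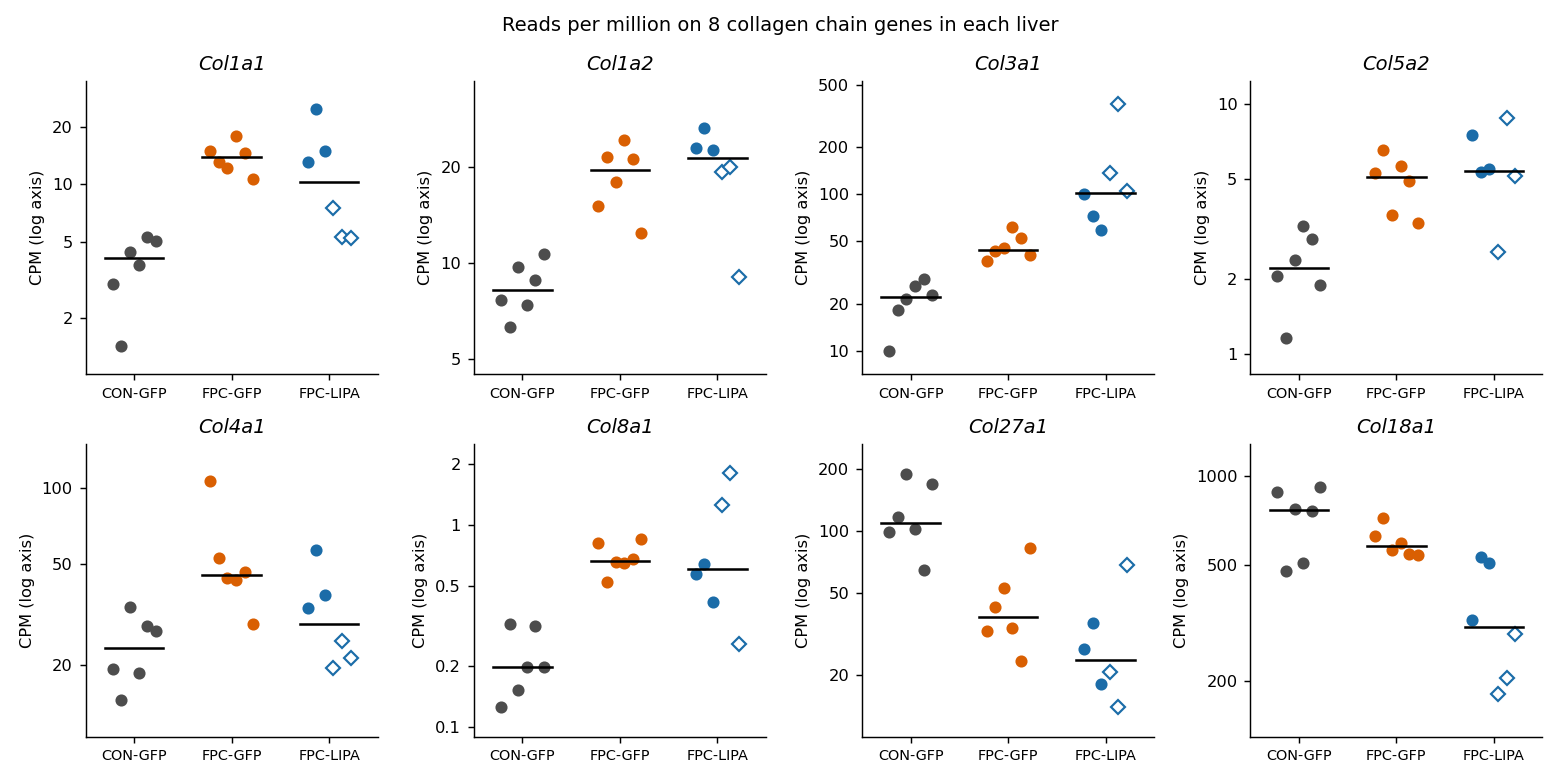
CPM (log axis) of 8 collagen chain genes in each of the 18 livers by group, with a bar at the group median; open diamonds mark FPC-LIPA 36, 37 and 39, the livers with 6.47% to 8.14% of counts on ribosomal protein genes. Col1a1, Col1a2, Col3a1, Col5a2 and Col8a1 separate CON-GFP from FPC-GFP, and in FPC-LIPA the diamonds are lowest for Col1a1 and Col18a1 and highest for Col3a1.

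The comparison of FPC-LIPA with FPC-GFP asks what the lipase added on the same diet, and it shares the FPC-GFP livers with the diet comparison. At a change of at least 2-fold and an adjusted p under 0.05, a single collagen gene was higher, Col3a1. Of 28 tested, 1 was higher (3.57%) and 0 lower, against 10.3% and 1.11% of all 14620 genes tested. At an unadjusted p under 0.05, 2 were higher and 4 lower, a rule for which the share of all genes was not counted. With DESeq2 2 were called higher and 0 lower, where 1960 of all 14620 genes were called. At an adjusted p under 0.05 and any fold, Col3a1 was higher and Col18a1 lower, where all genes gave 14.4% and 6.87%. The median log2 fold change was −0.24 over the 28 and 0.04 over all genes tested.

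Col3a1 had 59.2, 102 and 377 CPM as lowest, median and highest values in FPC-LIPA, against 37.7, 44.3 and 61.4 CPM in FPC-GFP. FPC-LIPA 34, at 59.2 CPM, was the only liver of its group within the FPC-GFP range, and FPC-LIPA 37, at 377 CPM, was far above the next, at 137 CPM. The log2 fold change was 1.70 (SE 0.40, adjusted p = 0.0174), and 1.05 (SE 0.22, adjusted p = 0.0219) without FPC-LIPA 37. Without the 3 libraries of high ribosomal share it was 0.73 (SE 0.18, adjusted p = 0.0714), which lost the call. Within livers whose library label carries a number from 55 to 68, which leaves out FPC-GFP 20 and FPC-LIPA 37 here, it was 1.02 (SE 0.24, adjusted p = 0.0628).

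Col18a1 was lower in every FPC-LIPA liver than in any FPC-GFP liver. It held 181, 307 and 531 CPM against 539, 577 and 719 CPM, and the 3 lowest values were those of FPC-LIPA 36, 37 and 39. The log2 fold change was −0.77 (SE 0.25, adjusted p = 0.0407). Without those 3 libraries it was −0.38 (SE 0.17, adjusted p = 0.261), and with 1 liver left out in turn it ranged from −0.94 to −0.65, with adjusted p values from 0.00934 to 0.0870 that missed the threshold in 10 of 12 cases. Those 10 left out any of the 6 FPC-GFP livers or FPC-LIPA 31, 36, 37 or 39. It was the 1 gene of 28 (3.57%) whose ranges did not overlap with FPC-LIPA lower, and 0 had no overlap with FPC-LIPA higher, against 4.3% and 3.36% of all genes tested.

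The type I chains did not pass the test with LIPA. Col1a1 had 5.23, 10.3 and 24.7 CPM in FPC-LIPA against 10.6, 13.8 and 17.9 CPM in FPC-GFP (log2 fold change −0.19, SE 0.32, adjusted p = 0.679). FPC-LIPA 31, 33 and 34 lay between 13.0 and 24.7 CPM and FPC-LIPA 36, 37 and 39 between 5.23 and 7.51 CPM, so the 3 livers of high ribosomal share were the lowest for this gene. Without them the log2 fold change was 0.36 (SE 0.21, adjusted p = 0.373). Col1a2 had 9.03, 21.2 and 26.5 CPM in FPC-LIPA (log2 fold change 0.15, SE 0.23, adjusted p = 0.633). Col5a2, at 0.30 (SE 0.27, adjusted p = 0.420), and Col5a1, at −0.26 (SE 0.23, adjusted p = 0.401), also did not pass.

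Among the other classes no gene passed the test with LIPA apart from Col18a1. Col4a1 was at −0.69 on the log2 scale (SE 0.31, adjusted p = 0.112) and Col4a2 at −0.77 (SE 0.32, adjusted p = 0.0922), and without FPC-LIPA 33, the highest of its group for both, they passed at −0.92 (adjusted p = 0.0241) and −1.17 (adjusted p = 0.00494). Col4a5, a type IV chain of the X chromosome best known from the kidney, had 1.37, 1.73 and 7.32 CPM in FPC-LIPA and 0.463, 1.04 and 1.98 CPM in FPC-GFP. The ranges overlapped and FPC-LIPA 37 was far above the others. Its log2 fold change was 1.22 (SE 0.48, adjusted p = 0.0756), and 0.58 (SE 0.36, adjusted p = 0.258) without FPC-LIPA 37. The type VI chains Col6a1, Col6a2 and Col6a3 had log2 fold changes of 0.05, −0.45 and 0.15, Col8a1 0.29 and Col27a1 −0.50, with adjusted p values from 0.338 to 0.905. Col15a1 was at −0.66 (SE 0.25, adjusted p = 0.0656) and Col7a1, the anchoring fibril chain and the most abundant of its class at a mean of 0.32 CPM, at −0.79 (SE 0.71, adjusted p = 0.414).

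**Figure D3:**
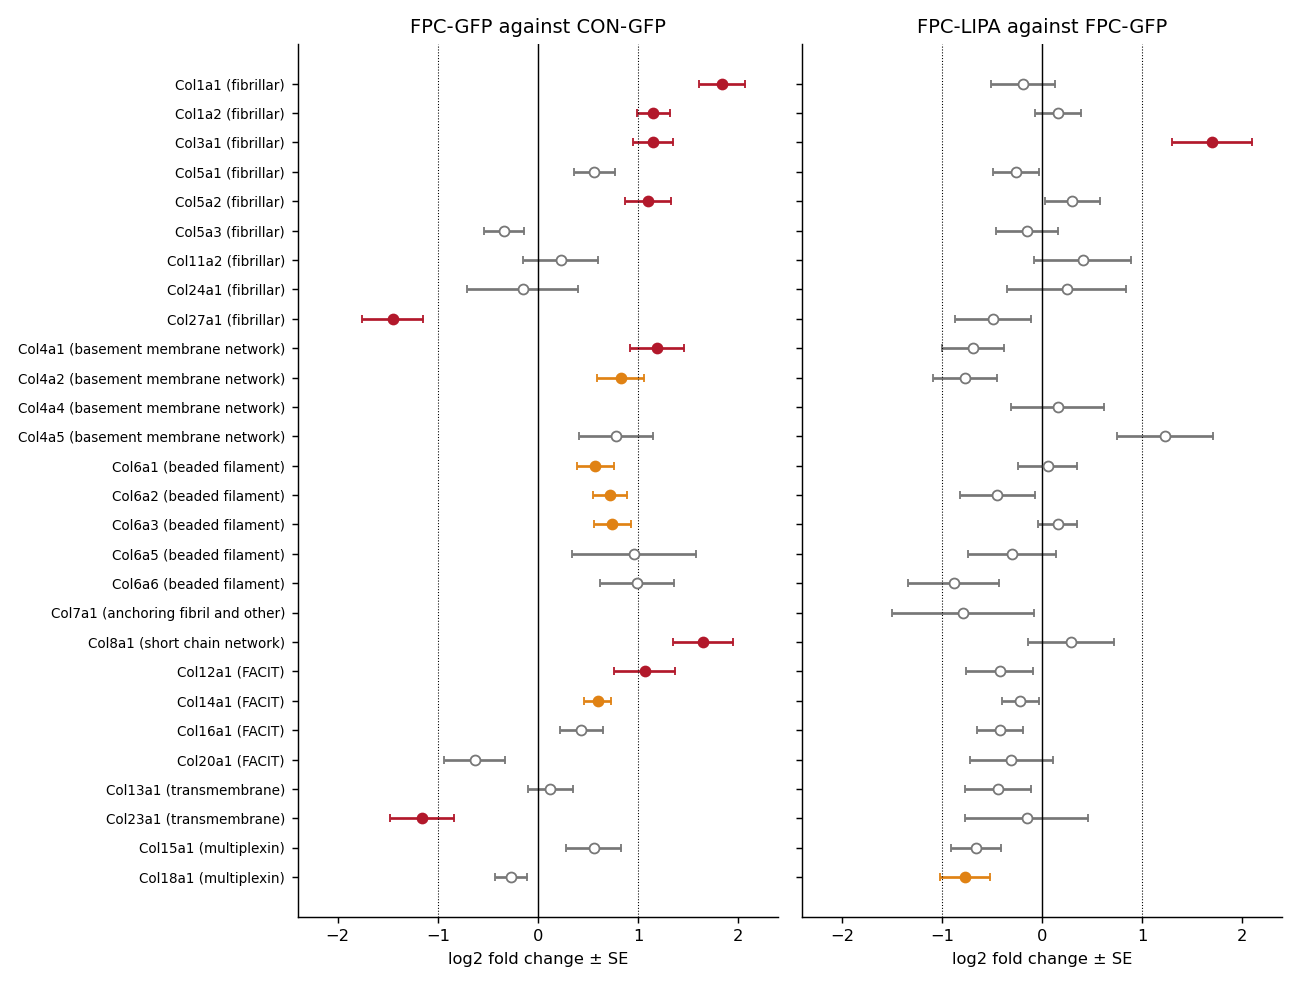
log2 fold change with its standard error for every tested collagen chain gene, by structural class, in FPC-GFP against CON-GFP (26 genes) and FPC-LIPA against FPC-GFP (28 genes); red marks at least 2-fold at an adjusted p under 0.05, orange an adjusted p under 0.05 at a smaller fold, open grey the rest, and dotted lines a 2-fold change. In the diet comparison 9 genes are red, and in the LIPA comparison only Col3a1, at 1.70, is.

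Against CON-GFP, the FPC-LIPA livers carried both treatments, and these livers served in the other comparisons too. Of 24 genes tested, 5 were higher (20.8%) and 2 lower (8.33%) at 2-fold and an adjusted p under 0.05, against 11.8% and 3.25% of all 14433 genes tested. Col3a1 had the largest log2 fold change of the 24, 2.81 (SE 0.44, adjusted p = 0.000546), with every FPC-LIPA liver above every CON-GFP liver. Col4a5 also did not overlap, at 1.97 (SE 0.47, adjusted p = 0.00834), and at 1.35 (SE 0.33, adjusted p = 0.0119) without FPC-LIPA 37. Col1a1 was at 1.65 (SE 0.39), Col5a2 at 1.38 (SE 0.30) and Col1a2 at 1.29 (SE 0.23). The 2 lower genes were Col27a1, at −1.97 (SE 0.37, adjusted p = 0.00210), and Col18a1, at −1.05 (SE 0.29, adjusted p = 0.0173). The Col18a1 call was lost without FPC-LIPA 36, 37 and 39 (−0.65, adjusted p = 0.0945), with library size alone (adjusted p = 0.0606) and with label numbers 55 to 68 (adjusted p = 0.0743). That last subset also ended the calls of Col4a5 (adjusted p = 0.0683) and Col5a2 (adjusted p = 0.0563).

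Ratios of 2 chains within a liver do not depend on library size. Type I collagen is built from Col1a1 and Col1a2 chains, and a CON-GFP liver had from 0.227 to 0.598 Col1a1 reads per Col1a2 read, with a median of 0.467, against 0.614 to 0.996 in FPC-GFP, with a median of 0.71. No FPC-GFP liver was as low as any CON-GFP liver, and the log2 ratio was higher by 0.82, from −1.23 ± 0.49 (SD, n = 6) to −0.42 ± 0.26 (exact permutation test, two-sided p = 0.00216, which is the smallest this design allows, adjusted p = 0.0260 over 12 comparisons). In FPC-LIPA the log2 ratio was −0.93 ± 0.63 (against FPC-GFP exact p = 0.0909, adjusted p = 0.156).

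Type III against type I chains split the FPC-LIPA livers. There were 3.29 to 12.8 Col3a1 reads per Col1a1 read in CON-GFP, 2.52 to 3.88 in FPC-GFP and 2.93 to 70.9 in FPC-LIPA. FPC-LIPA 31, 33 and 34 held 7.64, 2.93 and 3.95, whereas FPC-LIPA 36, 37 and 39 held 18.2, 70.9 and 20.0 Col3a1 reads per Col1a1 read. With the diet the log2 ratio of Col1a1 to Col3a1 was higher by 0.75 (exact permutation test, p = 0.0108, adjusted p = 0.0364). With LIPA it was lower, from −1.76 ± 0.23 to −3.52 ± 1.71 (exact permutation test, p = 0.0325, adjusted p = 0.0649), which missed the threshold.

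The chains of type IV and of type VI were compared in the same way. Col4a1 reads per Col4a2 read had a median of 1.91 in CON-GFP, 2.0 in FPC-GFP and 2.74 in FPC-LIPA. Their log2 ratio was higher in FPC-LIPA than in CON-GFP by 0.52 (exact permutation test, p = 0.0152, adjusted p = 0.0364) and not past the test in the other pairs of groups. Without FPC-LIPA 36, 37 and 39 that difference was 0.254 (exact permutation test, adjusted p = 0.333). Col6a1 reads per Col6a2 read had medians of 1.56, 1.43 and 2.38. The log2 ratio in FPC-LIPA, 1.25 ± 0.34, was higher than the 0.59 ± 0.16 in FPC-GFP (exact permutation test, p = 0.00433, adjusted p = 0.0260), and the highest 3 values were those of FPC-LIPA 36, 37 and 39. Without those 3 libraries the difference was 0.38 (exact permutation test, adjusted p = 0.143). For both ratios, fewer livers leave fewer splits and a higher smallest p. A missed threshold there cannot show that the difference was lost.

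**Figure D4:**
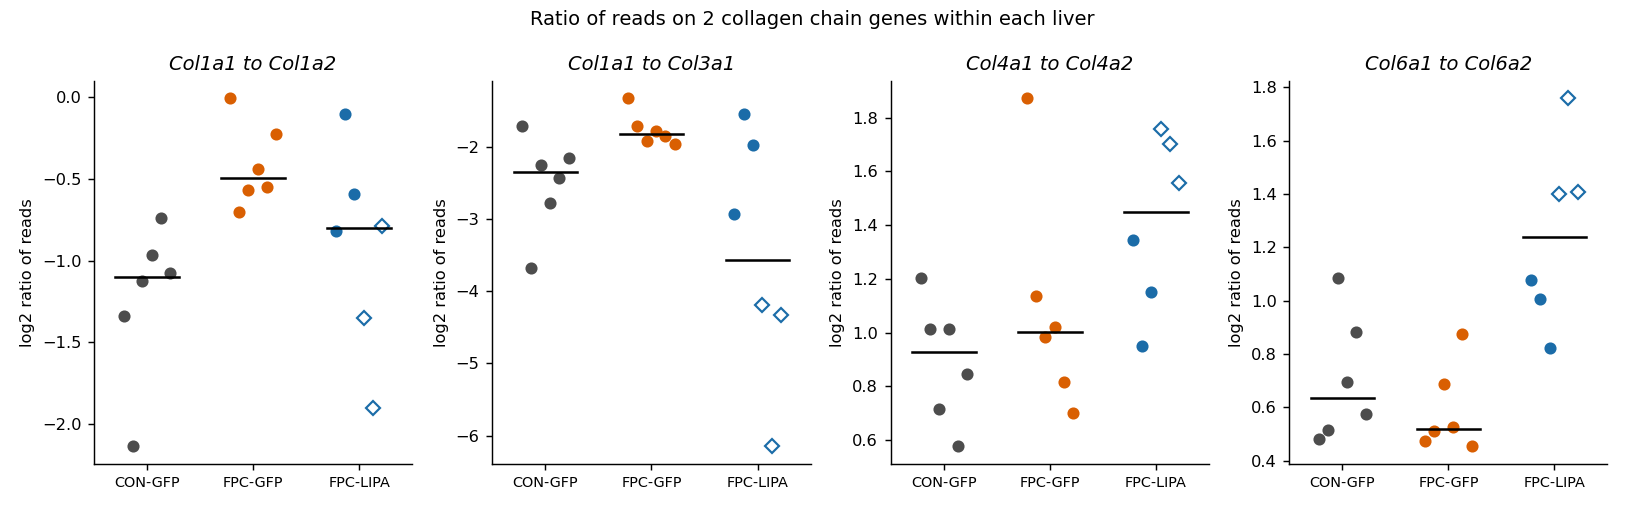
log2 ratio of reads on 2 collagen chain genes in each of the 18 livers, by group, with a bar at the group median; open diamonds mark FPC-LIPA 36, 37 and 39. The diamonds are the 3 lowest FPC-LIPA values for Col1a1 to Col3a1 and the 3 highest for Col4a1 to Col4a2 and Col6a1 to Col6a2.

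The fold changes with LIPA also moved with base composition. G and C content was that of the longest annotated transcript of each gene. Over the 28 tested genes, Spearman's rho between this content and the log2 fold change in FPC-LIPA against FPC-GFP was −0.378. Over all genes tested rho was −0.404, and all points share the same 12 libraries. Col3a1 (52.5% G and C) and Col4a5 (51.45%) had the highest fold changes, and Col4a2 (60.56%) and Col18a1 (60.79%) were among the lowest 4. The lowest, Col6a6 at −0.88, did not follow this order, with 52.37% G and C. Without FPC-LIPA 36, 37 and 39 the rho over 30 tested genes was −0.027 and their median log2 fold change 0.04. With each library's trend over G and C content removed, the log2 fold change was 2.00 for Col3a1 (SE 0.46, adjusted p = 0.0138), −0.45 for Col18a1 (SE 0.16, adjusted p = 0.0530) and 0.06 for Col1a1 (SE 0.21, adjusted p = 0.865). With the diet, rho was −0.467 over the 26 tested genes and 0.311 over all genes tested. Removal of the same trend there left 5 genes called higher, with Col1a2 at 0.99 and Col4a1 at 0.97 just under 2-fold. It also brought Col18a1, at −0.51 (SE 0.11, adjusted p = 0.00418), and Col5a3, at −0.58 (SE 0.16, adjusted p = 0.0158), past the test as lower. What set the 3 libraries apart was not tested.

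**Figure D5:**
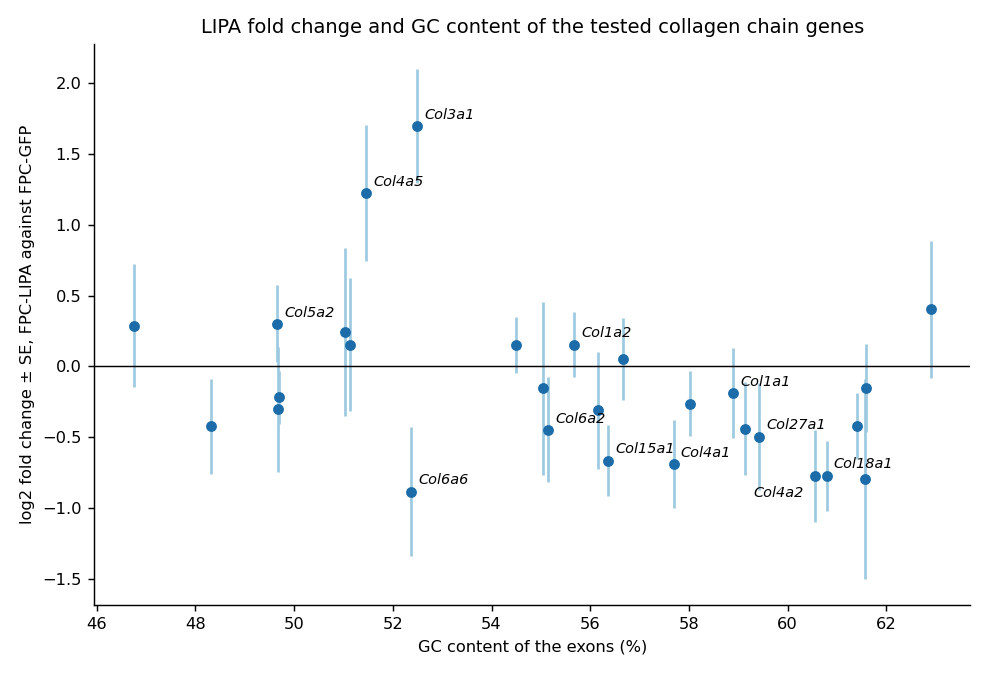
G and C content of the longest transcript of each gene (%, labelled as that of the exons on the axis) against the log2 fold change with its standard error in FPC-LIPA against FPC-GFP for the 28 tested collagen chain genes. Col3a1 at 52.5% and Col4a5 at 51.45% lie highest, Col4a2 and Col18a1, above 60%, lie near the bottom, and Col6a6, at 52.37%, lies lowest.

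Genes of collagen assembly were followed as well, in lists chosen for their role. With the diet, 4 of 13 tested hydroxylase and glycosyltransferase genes rose and 0 fell at an adjusted p under 0.05, all by less than 2-fold, where 12.9% and 10.9% of all genes did. The prolyl hydroxylase subunits P4ha2 and P4ha1, which make the helix stable, had log2 fold changes of 0.92 (SE 0.18, adjusted p = 0.00272) and 0.80 (SE 0.18, adjusted p = 0.00550). The most abundant member, P4hb, the shared subunit of that enzyme, did not pass (log2 fold change −0.10, adjusted p = 0.495), with means of 1655 CPM in CON-GFP against 1536 CPM in FPC-GFP. Of 9 folding and export genes, 4 rose and 2 fell. Serpinh1, the collagen chaperone HSP47, had 7.78 to 13.8 CPM in CON-GFP and 16.1 to 33.1 CPM in FPC-GFP, with no overlap (log2 fold change 1.08, SE 0.19, adjusted p = 0.00173), and FPC-GFP 11 was again the highest. Creb3l1, a transcription factor of collagen secretion, rose by 1.48 (SE 0.40, adjusted p = 0.0153), and the prolyl isomerase Ppib fell by 0.49 on the log2 scale (adjusted p = 0.00956).

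Of the 4 tested crosslinking genes, Loxl2 (log2 fold change 1.08, SE 0.20, adjusted p = 0.00235) and Loxl1 (1.21, SE 0.33, adjusted p = 0.0169) rose with the diet. Bmp1, the main protease that trims procollagen ends, fell by 0.80 on the log2 scale (adjusted p = 0.00224), and 1 of the other 4 tested genes of that list, Adamts2, rose. Among 7 tested collagen receptors Ddr1 rose by 1.77 (SE 0.36, adjusted p = 0.00381) and Lair1, an inhibitory receptor of leukocytes, by 1.12 (SE 0.21, adjusted p = 0.00250). Of 7 collagen-binding proteoglycans Prelp rose, by 0.60 (SE 0.17, adjusted p = 0.0203), and the most abundant, Dcn and Bgn, did not pass, at −0.03 and 0.39. The most abundant other members of these lists, Colgalt1, Pcolce, Loxl3, Itgb1 and Itga1, did not pass either, with differences from −0.08 to 0.48 on the log2 scale. Over all genes tested, 12.9% rose and 10.9% fell with the diet at an adjusted p under 0.05, against which the counts of these short lists are to be read.

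With LIPA, 12 hydroxylase and glycosyltransferase genes gave 0 higher and 1 lower at an adjusted p under 0.05, Plod1 (log2 fold change −0.53, adjusted p = 0.0472), and 9 folding genes gave 0 higher and 1 lower, Mia3 (−0.53, adjusted p = 0.0289). Over all genes tested 14.4% were higher and 6.87% lower, so the shares of lower genes are near the background. Lair1 rose from 3.05 to 5.95 CPM in FPC-GFP to 9.21 to 19.0 CPM in FPC-LIPA, with no overlap (log2 fold change 1.68, SE 0.25, adjusted p = 0.00790). Lox, a lysyl oxidase, at means of 0.282 CPM in FPC-GFP and 1.01 CPM in FPC-LIPA, rose by 1.87 (SE 0.56, adjusted p = 0.0326). It was tested only because its FPC-LIPA livers passed the filter on low counts, so its rise rests in part on that filter. Pcolce2, an enhancer of procollagen trimming, rose by 1.19 (SE 0.31, adjusted p = 0.0215). Decorin (Dcn), the small proteoglycan of collagen fibrils, rose by 0.88 (SE 0.29, adjusted p = 0.0449), and, like Col3a1, was highest in FPC-LIPA 37, at 519.9 CPM against 160.5 to 237.3 CPM in the other FPC-LIPA livers. Against CON-GFP, Serpinh1 (1.36), Pcolce2 (1.90), Loxl2 (1.39) and Lair1 (2.77) were higher past 2-fold and Bmp1 (−1.002) lower, with adjusted p values of 0.00828 or less.

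Markers of cell types were followed too, and those of collagen-making cells were mixed. The 9 stellate cell markers summed to 158 to 239 CPM in CON-GFP, 148 to 206 in FPC-GFP and 194 to 289 in FPC-LIPA. At an adjusted p under 0.05, 2 of 9 were higher with the diet (Pdgfrb and Ngfr) and 3 of 9 with LIPA (Lrat, Hgf and Rgs5). Their median log2 fold change was −0.018 with the diet and −0.105 with LIPA. With LIPA, Pdgfrb (−0.47), Reln (−0.28), Vipr1 (−0.20), Des (−0.13) and Ngfr (−0.10) were below 0 without passing the test, and Colec11 was at 0.48. Over all genes tested, 12.9% were higher with the diet and 14.4% with LIPA, against which the counts of these short lists are to be read. The 8 portal fibroblast markers summed to 9.47 to 17.3 CPM, 16.5 to 25.1 CPM and 20.3 to 36.4 CPM, with Gli1 below 0.1 CPM. Of the 6 portal markers tested, 1 rose past 2-fold with the diet (Fbln2) and 2 with LIPA (Cd34 and Dpt), where 4.76% and 10.3% of all genes tested were called higher. Activated myofibroblast markers summed to 44.5 to 74.1 CPM, 65.4 to 156 CPM and 88.6 to 266 CPM, with Cthrc1 below 0.1 CPM. Of those tested, 3 of 5 rose with the diet (Tagln, Timp1 and Spp1) and 2 of 6 with LIPA (Postn and Lox). Spp1 gave the largest part of the sum, with means of 32.2, 62.05 and 75.2 CPM, and did not pass with LIPA (0.36, adjusted p = 0.528). Acta2 passed in neither, at 1.18 with the diet (adjusted p = 0.131) and −0.91 with LIPA (adjusted p = 0.187). Kupffer cell markers, all 5 of them higher with the diet and 2 of 5 (Clec4f and Cd5l) with LIPA, summed to 98.3 to 209 CPM, 282 to 496 CPM and 366 to 761 CPM. Sinusoidal endothelial markers, 3 of 6 higher with the diet, summed to 133 to 214 CPM, 192 to 234 CPM and 214 to 321 CPM, vascular smooth muscle markers to at most 14.1 CPM, bile duct markers to at most 16.5 CPM and mesothelial markers to at most 13.6 CPM in any liver, with Msln higher with LIPA. Hepatocyte markers summed to 63100 to 96200 CPM, 55500 to 81700 CPM and 45400 to 71600 CPM. At an adjusted p under 0.05, 2 of 6 fell with the diet, where 10.9% of all genes tested did. The part of cell numbers in the collagen changes was not tested.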

How the data were processed

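Liver RNA of 18 mice, 1 library a mouse by the titles, was sequenced as paired reads. The sources used here name a TruSeq RNA kit and a stranded mRNA kit without saying which library had which, and give no strand setting. Per the authors' methods and the submitters' processing notes, reads were trimmed, aligned to GRCm38 (mm10) with HISAT2 2.1.0 and counted with featureCounts of Subread. The deposited values are raw whole-number counts for 55487 genes. Of the columns, 18 were matched to samples by name and 5 were not used.

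The counts were tested as deposited with edgeR 4.0.16 in R 4.3.3: filterByExpr, TMM scaling, a quasi-likelihood fit for each pair of groups, and Benjamini-Hochberg adjustment over all genes tested. A gene was called at 2-fold and an adjusted p under 0.05. CPM were scaled by TMM over all 18 libraries. Chain ratios were compared by exact permutation tests (scipy 1.17.1). Lengths, G and C content (of the longest transcript of a gene) and coordinates are from GENCODE M21 and promoters from RefSeq. The scripts were tested on simulated data.

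Alternatives were DESeq2 1.42.0 (its size factors and its test), library size alone, no filter, all libraries in 1 fit, a length trend removed, label numbers 55 to 68 only, 1 library left out, and the libraries of high ribosomal share left out. Removal of the G and C trend was chosen after seeing the data, as was leaving out those libraries for the ratios. The alternatives were read for the collagen chain genes and their ratios alone. The assembly and marker genes were not checked by them. Collagen genes named are those with a mean of at least 1 CPM, called in any comparison, or highest of their class. Others are named to account for the rest of a class, after their values were seen. Of the pathway lists, the members called and the 2 of highest CPM are named, with a few others that passed the test. The members and lists were chosen with earlier results of these data known. P-values measure the spread between these mice, and libraries of a group differed by 15.4 to 591 times sampling noise (chi-square per degree of freedom). Col3a1 shared 1.44% of its exon bases with a microRNA gene on its strand, and Col5a1 1.33% and 1.17% with transcripts on the other strand, whose reads cannot be told apart here. Counting intervals cover counting error only.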

Additional observations from a re-analysis of the deposited data

Results flagged for a closer look

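Of 78 groups of 6 values examined, 10 held a liver whose distance to the nearest of the others passed Dixon's 95% limit relative to the range. Chance gives about 1 in 20 groups for independent values of a normal distribution. CPM were not put on a log scale here and the groups share livers, so the 10 cannot be set against that rate. FPC-GFP 11 was highest for Col4a1, at 106 CPM with the others from 29.0 to 52.8, for Col12a1, at 14.9 CPM with the others from 3.98 to 6.57, and for the log2 ratio of Col4a1 to Col4a2, at 1.87 with the others from 0.70 to 1.14. FPC-LIPA 37 was highest for Col3a1, at 377 CPM with the others from 59.2 to 137, and for Col4a5, at 7.32 CPM with the others from 1.37 to 2.55. The other flags were spread over 5 livers. Col12a1 was at 5.36 CPM in CON-GFP 7 (others 2.29 to 3.30), Col4a5 at 1.29 CPM in CON-GFP 8 (others 0.422 to 0.721) and Col5a1 at 2.72 CPM in CON-GFP 2, below the others (5.92 to 7.78). Col6a2 was at 6.60 CPM in FPC-GFP 16 (others 4.51 to 5.005) and Col16a1 at 4.73 CPM in FPC-LIPA 33 (others 2.03 to 2.89).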

How the results depend on the processing

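No paired analysis was possible because the groups share no replicate numbers. With the diet, the count of collagen genes called stayed within 1.5 times of 9 in every alternative run, and the count at an adjusted p under 0.05 (14) fell to 9 when all 18 libraries entered 1 fit. In that fit the count over all genes fell too, from 3410 of 14307 to 1352 of 14963. With LIPA, the count called (1, Col3a1) was 2 with DESeq2 and in the fit of all 18 libraries, and 0 with label numbers 55 to 68 only and without the 3 libraries of high ribosomal share. Over all genes, 1671 of 14620 were called in the main fit, 1960 of 14620 with DESeq2 and 1899 of 14963 in the fit of all 18 libraries. Only 96 of 14736 were called with those label numbers and 116 of 15246 without the 3 libraries. A count of 0 collagen genes is near those last shares. The count at an adjusted p under 0.05 (2) was 4 with DESeq2, 1 with library size alone, without the filter, with the G and C trend removed and with the length and G and C trends removed, and 0 in both of the subsets. Over all genes that count was 3102 in the main fit, 4422 with DESeq2, 1438 to 3036 in the settings that gave 1, and 104 and 186 in the subsets. With 1 library left out, the counts of collagen genes ranged from 1 to 3 and from 1 to 7, the highest of both without FPC-LIPA 33. In FPC-LIPA against CON-GFP, 7 called and 8 at an adjusted p under 0.05 became 4 and 4 with label numbers 55 to 68, and the second became 13 with the length and G and C trends removed. Over all genes, 2176 and 3304 became 1107 and 1402 with those label numbers, and the second became 4300 with both trends removed. The cause of these changes was not tested, beyond the smaller number of livers in the subsets.

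Of the diet calls, the fit of all 18 libraries ended those of Col3a1 (1.16, adjusted p = 0.0534) and Col23a1 (−1.15, adjusted p = 0.184). Col4a2 (0.84, adjusted p = 0.123), Col6a1 (0.59, adjusted p = 0.212) and Col6a2 (0.73, adjusted p = 0.192), not called at 2-fold, missed the threshold there. Label numbers 55 to 68 ended the calls of Col12a1 (1.02, adjusted p = 0.0944) and Col23a1 (−1.07, adjusted p = 0.0793). In that subset Col4a2 (0.63, adjusted p = 0.0578) and Col6a1 (0.42, adjusted p = 0.0888) missed the threshold. Col6a1 also missed it with the length trend, the G and C trend or both removed (adjusted p = 0.0518, 0.0604 and 0.101). With 1 library left out in turn, it missed in 5 of 12 cases. Some named genes that passed no test in the comparison concerned changed sign. With the diet, Col13a1 (0.13) was at −0.15 with the G and C trend removed and −0.22 with both trends removed, and from −0.053 to 0.249 with 1 library left out. With LIPA, removal of the G and C trend gave 0.056 for Col1a1, 0.041 for Col5a1 and 0.135 for Col5a3. Removal of both trends gave 0.196 for Col1a1, 0.202 for Col5a1, 0.33 for Col5a3, 0.15 for Col16a1, 0.091 for Col23a1 and 0.141 for Col27a1. Without the 3 libraries of high ribosomal share, values were 0.36 for Col1a1, 0.094 for Col5a1, 0.26 for Col5a3, 0.19 for Col6a2, 0.028 for Col14a1, 0.33 for Col23a1 and −0.33 for Col8a1, which was at −0.021 with label numbers 55 to 68. With 1 library left out, Col5a3 ranged from −0.46 to 0.006, Col6a1 from −0.17 to 0.19, Col8a1 from −0.094 to 0.455 and Col23a1 from −0.57 to 0.11.

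Of the ratios, label numbers 55 to 68 took 5 results that had passed below the threshold: Col1a1 to Col1a2 with the diet (0.524, adjusted exact p = 0.0635), Col1a1 to Col3a1 with the diet (0.691, exact 0.0635), Col6a1 to Col6a2 with LIPA (0.527, exact 0.0635) and against CON-GFP (0.333, exact 0.190), and Col4a1 to Col4a2 against CON-GFP (0.564, exact 0.0952). Without the 3 libraries of high ribosomal share, the last 3 were 0.38, 0.262 and 0.254, and Col1a1 to Col3a1 in FPC-LIPA against CON-GFP turned from −1.02 to 0.351 (adjusted exact p = 0.6). With the G and C trend removed, Col1a1 to Col3a1 with LIPA was −1.56 and passed (adjusted exact p = 0.0476). With 1 library left out, Col1a1 to Col1a2 with LIPA ranged from −0.675 to −0.314, Col1a1 to Col3a1 with the diet from 0.513 to 0.905 and with LIPA from −2.16 to −1.24, Col4a1 to Col4a2 against CON-GFP from 0.447 to 0.608 and Col6a1 to Col6a2 against CON-GFP from 0.437 to 0.624. Of the 12 livers left out in turn, 7 ended the second of these and 9 each of the last 2. In all these subsets the exact test has fewer splits and a higher smallest p than with all livers. A threshold missed there cannot show that a difference was lost. Without Col18a1 the collagen share of counts was 0.0334% in CON-GFP, 0.042% in FPC-GFP and 0.0418% in FPC-LIPA.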
